A study of Mus musculus with 12 samples.

Results

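The genes described are 31 mouse genes of DNA repair and of the DNA damage checkpoint, chosen by name. They fall into 5 subgroups: homologous recombination (11 genes), the Fanconi pathway (3), mismatch repair (2), checkpoint kinases (4) and break signalling (11). Of the 31, 30 had a line of their own among the 23174 lines of each table, and all 30 passed the minimum of a mean of 1 FPKM in both tables. Rad54b stood only in an entry joined with Fsbp and was left out of every count. FPKM is fragments per kilobase of RNA, scaled to the mapped total, so levels of different genes can be set side by side.

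RNA sequencing was done on mouse T-ALL cells (T-ALL is T cell acute lymphoblastic leukaemia, which arises from T cell precursors), of strain C57BL/6 and genotype Notch1-deltaE+, an activated form of Notch1 that every group carried. Ex vivo, 3 samples received AMD3100, an antagonist of the chemokine receptor CXCR4, and 3 received vehicle. Separately, 3 primary tumours of genotype Cxcr4+/+ (wild type 1, 2 and 4) were set beside 3 of genotype Cxcr4-/- (knockout 5, 7 and 8). The labels describe T-ALL cells from spleen grown with 5 ng/ml IL-7 on OP9, a stromal line from mouse bone marrow. The OP9 layer had been treated with 7.5 ng/ml mitomycin C, an agent that crosslinks DNA, to stop its division. This culture is given for all 12 samples, so the labels leave unclear whether tumour RNA came straight from the animal. Marker levels of both tables are given below, and the origin of the tumour RNA was not tested. Drug dose, exposure time, the age of the animals, and how Cxcr4 was deleted were not stated in the labels used. The labels tie no sample to an animal or a culture, so a p-value here reflects the spread of these samples alone, and that spread may be technical.

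A DNA double-strand break is first bound by the MRE11-RAD50-NBN complex, which recruits the kinase ATM. ATM marks the histone variant H2AX, and on that mark MDC1, RNF8 and RNF168 build a ubiquitin signal that draws in BRCA1 or the product of Trp53bp1. Homologous recombination then copies the intact sister chromatid, with BRCA1, BRCA2 and their partners, mainly in S and G2 phase. ATR and its target kinase CHK1 respond to stalled replication forks, the Fanconi proteins to crosslinked DNA, and mismatch repair to copying errors. Developing T cells cut their own DNA to assemble antigen receptor genes, and these breaks activate ATM and are closed by end joining. Many recombination and checkpoint genes are transcribed with the cell cycle through E2F factors.

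Promoter windows are shown for 3 of the 5 members whose level moved with AMD3100 (Rnf169, Chek1 and Rad51ap1) and for Msh6, the mismatch repair gene with the lowest p in the tumours. Each window runs from 250 bases before to 50 bases after the gene's start in RefSeq (build GRCm38.p6) and is read along the gene. Capitals mark 4 sets of letters searched on both strands: TTCCCGC and TTTGGCGC (cores of E2F sites), CCAAT (the NF-Y core) and TTTGAA (the core of the cell cycle element CHR). No 2 of these contain one another. A match on the opposite strand appears as the reverse complement. A match is a description of the letters, not a binding site.
Rnf169 (chr7:99980409-99980708, minus strand): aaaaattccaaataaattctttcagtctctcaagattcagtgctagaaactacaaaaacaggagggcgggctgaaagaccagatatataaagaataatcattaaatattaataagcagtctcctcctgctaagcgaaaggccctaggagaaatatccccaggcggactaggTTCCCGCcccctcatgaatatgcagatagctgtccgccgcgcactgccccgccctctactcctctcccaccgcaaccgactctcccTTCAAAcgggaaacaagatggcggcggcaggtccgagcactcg
Chek1 (chr9:36726609-36726908, minus strand): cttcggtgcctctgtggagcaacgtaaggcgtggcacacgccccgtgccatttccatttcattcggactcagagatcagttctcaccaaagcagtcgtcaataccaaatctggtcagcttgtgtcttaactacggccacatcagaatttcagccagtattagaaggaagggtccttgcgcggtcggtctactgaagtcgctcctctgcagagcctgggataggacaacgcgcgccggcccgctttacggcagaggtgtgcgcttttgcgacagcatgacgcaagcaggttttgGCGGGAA
Rad51ap1 (chr6:126939538-126939837, minus strand): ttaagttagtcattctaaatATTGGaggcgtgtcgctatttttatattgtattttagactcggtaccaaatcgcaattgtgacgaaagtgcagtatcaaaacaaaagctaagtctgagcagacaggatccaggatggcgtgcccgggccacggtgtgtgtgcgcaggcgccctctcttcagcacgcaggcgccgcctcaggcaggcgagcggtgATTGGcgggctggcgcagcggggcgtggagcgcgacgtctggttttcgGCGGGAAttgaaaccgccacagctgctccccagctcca
Msh6 (chr17:87974800-87975099, plus strand): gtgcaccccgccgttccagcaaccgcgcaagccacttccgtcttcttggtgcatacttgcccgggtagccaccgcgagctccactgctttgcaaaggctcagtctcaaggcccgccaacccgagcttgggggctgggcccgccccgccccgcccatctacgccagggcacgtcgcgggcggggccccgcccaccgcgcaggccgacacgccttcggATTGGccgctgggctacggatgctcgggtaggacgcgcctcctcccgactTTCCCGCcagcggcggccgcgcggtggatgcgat

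RefSeq windows were matched for 24 of the 30 genes, and none was matched for H2afx, Nbn, Xrcc2, Rad50, Fancd2 and Rbbp8. TTCCCGC stood in 12 of the 24, or 50.0%, against 5.3% of 27025 genes with a window and 10.6% of the 7540 such genes kept ex vivo. The 12 were Brca2, Bard1, Rad51ap1, Fanci, Msh6, Atm, Chek1, Chek2, Mdc1, Rnf8, Rnf168 and Rnf169. For Rnf169 the letters began at -79, for Rad51ap1 at 13, for Msh6 at 17 and for Chek1 at 44, counted from the start with 1 as its first base. TTTGGCGC stood in 0 of the 24 and in 0.6% of all genes. CCAAT stood in 15 of the 24 (62.5%, against 41.1% of all genes and 43.7% of those kept ex vivo). TTTGAA stood in 3 (12.5%, against 20.2% of all genes and 13.9% of those kept ex vivo). Among genes of G2/M and mitosis TTTGAA stood in 23 of 31 windows and TTCCCGC in 1 of 31, whereas among DNA replication genes TTCCCGC stood in 15 of 38. TTCCCGC stood in 6 of 12 members whose level was lower in all 3 pairs described below and in 6 of 12 others. Most of these 24 were not called, so the counts cannot tell whether the letters go with the response.

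Relative depth, read from the steps among low values and set to 1 in vehicle 1, was 0.914 and 0.753 in vehicle 2 and 3 and 1.06, 1.26 and 1.21 in AMD3100 1, 2 and 3. Read totals are not known, and too few low values remained for such an estimate in the tumours. Libraries of a group correlated at a Spearman rho of 0.942 to 0.962 ex vivo, and of 0.909 to 0.946 for tumours. All 16 T cell markers were measured in both tables, with a summed level of 5968 to 7167 FPKM ex vivo and 2179 to 8432 FPKM in the tumours. Stromal markers (13 genes, Dcn and Lum at 0 throughout) summed to 166, 208 and 17.0 FPKM in vehicle 1, 2 and 3 and to 182, 209 and 27.1 FPKM in AMD3100 1, 2 and 3, so the samples numbered 3 held less stromal RNA in both groups. In the tumours 10 of these 13 genes, Cxcl12 among them, were at 0 in every library. Their sums there were 5.44 to 22.9 FPKM in wild type and 0.977 to 2.77 FPKM in knockout. The haemoglobin gene Hbb-b1 was at 0 in every ex vivo library, and at 609.8 FPKM or more in every tumour. In bulk samples such as these, fewer cells of a type and less RNA per cell cannot be told apart. Knockout tumour 8 had the most genes at 0, 13231. The targeted gene Cxcr4 was at 241, 155 and 206 FPKM in wild type 1, 2 and 4 and at 23.2, 78.9 and 21.9 FPKM in knockout 5, 7 and 8. The tumour groups did not overlap for Cxcr4, although RNA remained in each knockout library. Of all genes tested, 5.20% were likewise lower in knockout without overlap. Limma did not call Cxcr4 between the genotypes (log2 change -2.49, SE 0.51, adjusted p = 0.986).

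With AMD3100, Rnf169, a reader of ubiquitinated histones at breaks, rose 2.00-fold and was the 1 member called by limma without pairing (Benjamini-Hochberg adjusted p = 0.0487, where 0.127% of all genes were called and 0.0488% were higher). When vehicle and AMD3100 samples of the same number were paired, 4 more members passed. H2afx, the gene of H2AX, rose 1.49-fold. Chek1, the gene of CHK1, fell to 0.690 of its vehicle level, Rad51ap1, of homologous recombination, to 0.729 and Nbn, the adaptor of the break-sensing complex, to 0.812. The other 25 members passed in neither fit. The 5 of 30 members called with pairing (16.7%) compare with 19.9% of all 10245 genes tested, a share near that of any gene. By direction, 2 members rose against 9.96% of all genes and 3 fell against 9.92%. The paired calls depended on the pairs numbered 1 and 2, for the members as for all genes. No member was called without pair 1, when 9 of all genes were, or without pair 2, when 7 were. Without the pair numbered 3, Rnf169, H2afx and Chek1 were called, beside 1207 of all genes.

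**Figure D1:**
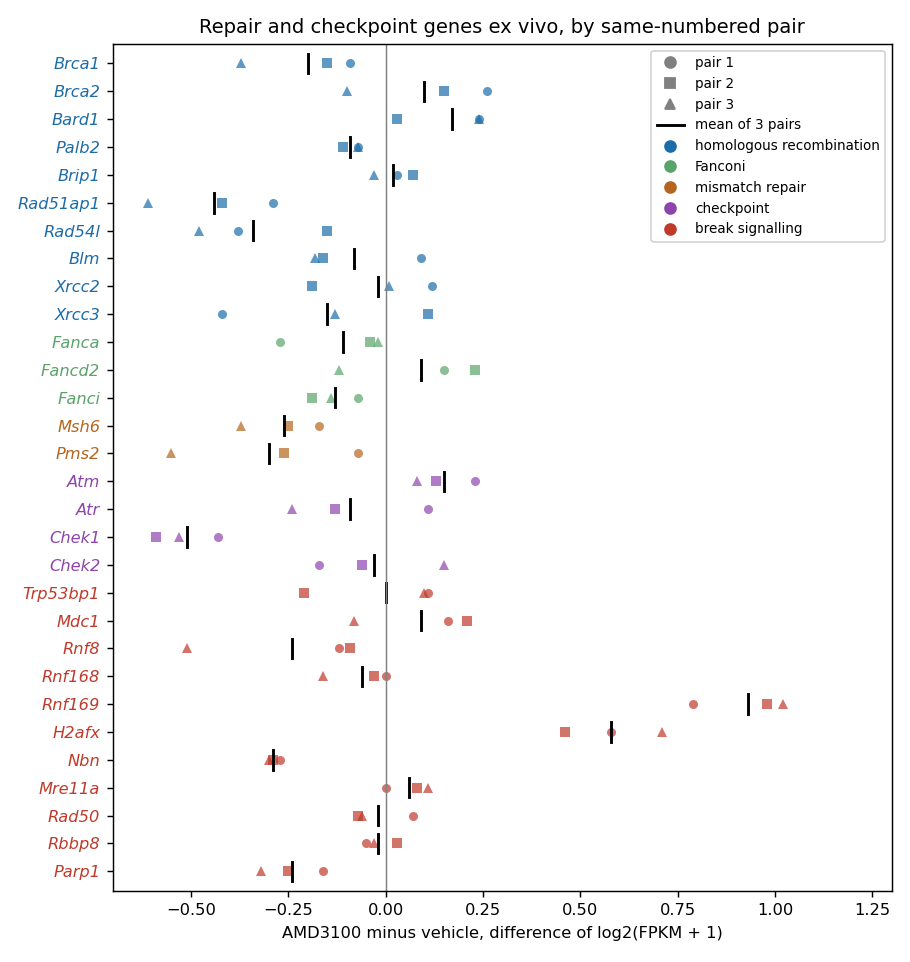
Difference of log2(FPKM + 1) between AMD3100 and vehicle (horizontal axis) for 30 genes, with a point for each same-numbered pair and a bar for the mean of 3 pairs, coloured by subgroup. Rnf169 and H2afx lie to the right in all 3 pairs and Chek1, Rad51ap1 and Nbn to the left in all 3, while most other genes lie close to 0.

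Over the 30 members the median change was -0.07 in log2(FPKM + 1), a scale that understates changes of low genes, against 0.00 over all genes tested. Single members ran from -0.51 to 0.93, and those not called in the paired fit from -0.34 to 0.17. A member was lower in all 3 pairs in 13 of 30 cases, against 29.4% of all genes, and higher in all 3 in 4 of 30, against 30.8%. The vehicle and AMD3100 libraries did not overlap for 7 members, against 28.9% of all genes, 2 higher (13.1% of all genes) and 5 lower (15.8%). The 5 lower ones were Chek1, Rad51ap1, Nbn, Rad54l and Pms2, and the last 2 were not called.

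Among break signalling genes, Rnf169 moved most. RNF169 binds the ubiquitin mark that RNF168 lays down and competes with the product of Trp53bp1 for it. Its level was 10.1, 9.42 and 9.20 FPKM in vehicle 1, 2 and 3 and 18.3, 19.6 and 19.7 FPKM in AMD3100 1, 2 and 3. Every treated library was above every vehicle library, with a mean of 9.58 ± 0.484 FPKM (SD, n = 3) against 19.2 ± 0.806 FPKM. The log2 change was 0.93 (SE 0.09, limma adjusted p = 0.0487, and 0.0191 when paired). Without any single library it stayed between 0.91 and 0.97, but the unpaired call was lost each time. Corrected for transcript length within each pair, it was 0.73 (limma adjusted p = 0.0284).

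H2afx is the most abundant of the 30 transcripts ex vivo, and its product is the histone that ATM marks at breaks. H2afx stood at 405, 428 and 337 FPKM with vehicle and at 605, 588 and 553 FPKM with AMD3100, again with no overlap. The means were 390.3 ± 47.4 and 582 ± 26.9 FPKM (SD, n = 3), and the log2 change was 0.58 (SE 0.12). Limma did not call it without pairing (adjusted p = 0.0705) and called it with pairing (adjusted p = 0.020). Its transcript can end with or without a poly-A tail, and only tailed RNA was sequenced here. Histone genes have close relatives, and how the authors treated reads shared between them is not stated in the labels.

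Of the 3 subunits of the MRE11-RAD50-NBN complex, Nbn alone passed, and with pairing only. Nbn, which brings ATM to the break, was at 25.6, 26.7 and 27.3 FPKM with vehicle and at 21.0, 21.6 and 21.9 FPKM with AMD3100. The groups did not overlap, and the log2 change was -0.29 (SE 0.08, limma adjusted p = 0.106, and 0.0448 when paired). Mre11a, the nuclease, was at 24.8 ± 0.704 and 25.9 ± 0.474 FPKM (SD, n = 3), with a log2 change of 0.06. Rad50, the ATPase that tethers the ends, was at 38.6 ± 2.78 and 38.0 ± 2.67 FPKM, with a log2 change of -0.02. Neither was called (limma adjusted p = 0.718 and 0.950 unpaired). The difference between subunits was not tested. After the length correction the log2 change of Nbn was -0.26 and was not called (adjusted p = 0.0694).

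The rest of the break signalling genes were not called in either fit. Parp1, the polymerase that senses breaks by making poly(ADP-ribose), was at 131, 159 and 153 FPKM with vehicle and at 117, 134 and 123 FPKM with AMD3100. It was lower in all 3 pairs, with a log2 change of -0.24 (SE 0.10, limma adjusted p = 0.248, and 0.0622 when paired). Rnf8, the first ubiquitin ligase of the cascade, had a log2 change of -0.24 and was also lower in all 3 pairs, by 0.51 in the third. Rnf168, the ligase that extends the mark, had -0.06, and the scaffold gene Mdc1 had 0.09. Trp53bp1, whose product limits resection of broken ends, was at 8.74 ± 0.871 and 8.73 ± 0.375 FPKM (SD, n = 3). Rbbp8, the gene of the resection factor CtIP, was at 25.3 ± 1.87 and 24.9 ± 1.43 FPKM. Along the RNF8, RNF168 and RNF169 chain only the reader gene passed, and the difference between its change and those of the ligase genes was not tested.

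**Figure D2:**
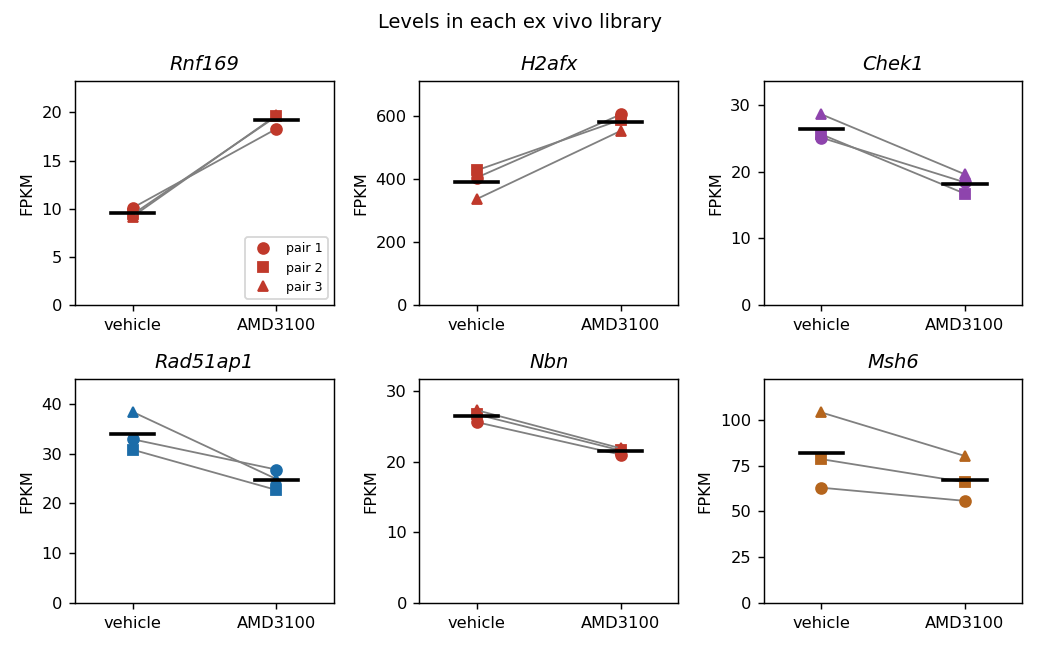
FPKM (vertical axis, from 0) of 6 genes in each vehicle and AMD3100 library, with lines joining same-numbered samples and black bars for group means. For Rnf169 and H2afx each AMD3100 library lies above each vehicle library, for Chek1, Rad51ap1 and Nbn each lies below, and for Msh6 the groups overlap although each pair falls.

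Of the 4 checkpoint kinases, Chek1 fell and Atm, Atr and Chek2 were not called. CHK1 is activated by ATR and holds the cell cycle when replication stalls. Chek1 was at 25.1, 25.6 and 28.6 FPKM with vehicle and at 18.4, 16.7 and 19.6 FPKM with AMD3100. The groups were well apart, at means of 26.4 ± 1.93 and 18.2 ± 1.46 FPKM (SD, n = 3). The log2 change was -0.51 (SE 0.10, limma adjusted p = 0.0705, and 0.0203 when paired), and -0.55 after the length correction (adjusted p = 0.0288). Atr itself was at 8.03 ± 1.02 and 7.50 ± 0.739 FPKM, with a log2 change of -0.09 (SE 0.14). Atm was at 13.2 ± 1.57 and 14.7 ± 1.24 FPKM, higher in all 3 pairs, with a log2 change of 0.15 (SE 0.12, limma adjusted p = 0.572). Its target kinase gene Chek2 was at 11.8 ± 0.268 and 11.6 ± 1.58 FPKM. Each of these 3 differences lay within about its standard error or little above it.

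In homologous recombination, Rad51ap1 fell in the paired fit and the other 9 genes measured were not called. Rad51ap1, whose product promotes strand pairing, was at 32.9, 30.8 and 38.4 FPKM with vehicle and at 26.8, 22.7 and 24.9 FPKM with AMD3100. Its log2 change was -0.44 (SE 0.12, limma adjusted p = 0.105, and 0.0319 when paired), and the groups did not overlap. Rad54l, a motor protein that acts on DNA during strand exchange, was at 16.8, 16.0 and 19.3 FPKM with vehicle and at 12.7, 14.3 and 13.6 FPKM with AMD3100. It was lower in all 3 pairs and without overlap, but was not called (log2 change -0.34, SE 0.11, limma adjusted p = 0.155, and 0.0696 when paired). After the length correction the log2 change of Rad51ap1 was -0.39 and was not called (adjusted p = 0.0528).

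Brca1 and Bard1, which form a ubiquitin ligase together, had log2 changes of -0.20 (SE 0.13) and 0.17 (SE 0.11). Brca1 was lower and Bard1 higher in all 3 pairs, and neither was called (limma adjusted p = 0.425 and 0.436). Brca2, a central mediator of recombination, was at 7.92 ± 0.719 and 8.66 ± 1.62 FPKM (SD, n = 3), with pairs at 0.26, 0.15 and -0.10. Palb2, the bridge between BRCA1 and BRCA2, had a log2 change of -0.09 and the helicase gene Brip1 one of 0.02. The RecQ helicase gene Blm had -0.08, and the recombination genes Xrcc2 and Xrcc3 had -0.02 and -0.15. The means of Bard1, 12.3 ± 0.621 and 14.0 ± 1.35 FPKM, lay further apart than either SD. For the other genes of this paragraph the difference between groups was smaller than or similar to the spread between libraries.

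The Fanconi and mismatch repair members were not called in either fit. Fancd2 and Fanci, which form the clamp on crosslinked DNA, had log2 changes of 0.09 (SE 0.12) and -0.13 (SE 0.12), and Fanca, of the core complex that ubiquitinates them, had -0.11 (SE 0.20). Msh6, which recognises mispaired bases, was at 62.9, 78.5 and 104 FPKM with vehicle and at 55.7, 65.9 and 80.2 FPKM with AMD3100. In both groups the sample numbered 1 was lowest and that numbered 3 highest, so the groups overlapped while every pair was lower. Its log2 change was -0.26 (limma adjusted p = 0.563 with an SE of 0.22, and 0.0571 when paired with an SE of 0.07), and with the length correction it was called at -0.32 (adjusted p = 0.0476). Pms2, of the mismatch repair nuclease, was at 11.7, 12.7 and 16.5 FPKM with vehicle and at 11.1, 10.4 and 10.9 FPKM with AMD3100, with a log2 change of -0.30 (SE 0.14, limma adjusted p = 0.303, and 0.135 when paired).

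The changes were also corrected for transcript length. The members are long, with a median longest transcript of 4707 bases against 3054 bases over the genes tested with a length, and 24 of 30 were above that median. After each pair was corrected for its trend with length, the median of the members was -0.17 against -0.02 over all genes. The 4 members then called were Rnf169 and H2afx, higher (5.99% of all genes), and Chek1 and Msh6, lower (6.55%), beside 12.5% of all genes in either direction. Brca2, Brip1, Fancd2, Atm, Mdc1 and Mre11a turned from above to below 0 under this correction, Trp53bp1 went from 0.00 to -0.28 and Chek2 from -0.03 to 0.02, and none of these was called either way.

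A further 145 repair genes in 9 lists gave the rest of the pathway. In the paired fit 20 of the 141 tested fell (14.2%, against 9.92% of all genes) and 1 rose (0.709%, against 9.96%), and without pairing limma called 0 of them. No gene of these lists was called without pair 1 or without pair 2, and 12 fell without pair 3, beside 623 of all genes. Of 28 other recombination genes 6 fell, led by Swi5 and by Shfm1, whose product binds BRCA2. Swi5 went from 302 ± 14.1 to 203 ± 12.9 FPKM and Shfm1 from 568 ± 14.5 to 365 ± 31.9 FPKM (SD, n = 3). Of 17 other Fanconi genes 1 fell, Apitd1, a histone-fold partner of FANCM (34.0 ± 6.09 to 17.3 ± 3.37 FPKM). Of 10 end joining genes 1 fell, Xrcc6, the gene of Ku70, at 215, 190.1 and 671 FPKM with vehicle and 128, 129 and 291 FPKM with AMD3100.

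Of 14 other checkpoint genes 2 fell, the fork protection genes Tipin (166 ± 10.8 to 128 ± 8.12 FPKM, SD, n = 3) and Clspn, whose product claspin carries the signal from ATR to CHK1 (38.3 ± 5.31 to 29.7 ± 3.41 FPKM). Of 20 genes of base excision and single-strand breaks 4 fell, among them the nuclease gene Apex1 (155 ± 27.7 to 89.8 ± 27.4 FPKM) and the glycosylase gene Mutyh (6.72 ± 2.34 to 3.73 ± 1.20 FPKM). Of 18 nucleotide excision genes 3 fell, including the damage sensor gene Ddb1 (log2 -0.37) and the TFIIH subunit gene Gtf2h1 (log2 -0.37). Of 20 other break signalling genes 1 fell, the acetyltransferase gene Kat5 (log2 -0.50), and 1 rose, Parp3 (log2 0.56). None of 9 translesion synthesis genes was called. After the length correction 18 of the 141 genes fell (12.8%, against 6.55% of all genes) and 0 rose (against 5.99%). Parp3, Tipin and Gtf2h1 were then no longer called (limma adjusted p = 0.0526, 0.0502 and 0.0546, paired).

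Genes of DNA replication and G1/S moved far more widely. Of 48 genes 40 fell and none rose in the paired fit, 83.3% against 9.92% of all genes, with a median log2 change of -0.49. Without pair 1 or without pair 2, when 9 and 7 of all genes were called, the paired fit called 0 of the 48. Without pair 3 it called 28 of them lower, beside 623 of all genes. Pcna, the sliding clamp of replication and repair, went from 230.2 ± 13.4 to 133 ± 9.65 FPKM (SD, n = 3). In the G2/M and mitosis list, 6 of 38 genes fell and none rose, with a median of -0.09, while 3 fell after the length correction and 2 without pair 3. Mki67 was at 210.0 ± 47.6 and 194 ± 14.4 FPKM. Of 19 p53 targets 4 rose (21.1%, against 9.96% of all genes) and 1 fell, with a median of 0.29. Cdkn1a, the cell cycle inhibitor that p53 induces after damage, was at 25.9, 21.1 and 18.1 FPKM with vehicle and at 40.5, 36.0 and 85.6 FPKM with AMD3100, without overlap but not called (limma adjusted p = 0.126, and 0.0598 when paired). Mdm2 was not called (log2 0.25). All 4 nuclear long RNAs tested rose, against 9.96% of all genes, and 2 of them did after the length correction. Malat1 was among the 4 (242 ± 81.8 to 676 ± 214 FPKM). Without pairing, limma called 0 genes of these 4 lists, and paired it called none in the last 3 without pair 1 or without pair 2. The part of cell cycle phase, RNA composition or stromal RNA in the members' changes was not tested.

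**Figure D3:**
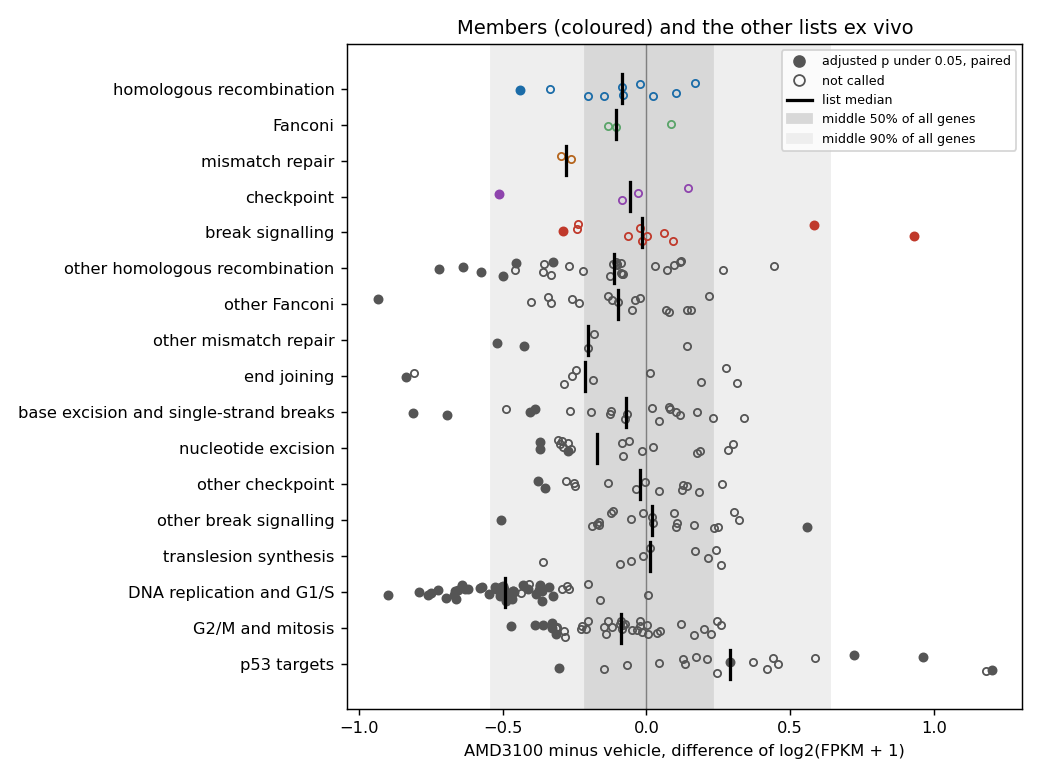
Difference of log2(FPKM + 1) between AMD3100 and vehicle (horizontal axis) for each gene of the 5 subgroups (coloured) and of 12 other lists (grey), with filled points for genes called in the paired fit, bars for list medians and grey bands for the middle of all genes. The repair lists have medians between -0.28 and 0.02, while the replication list lies at -0.49.

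In the tumours no member passed the test between genotypes. Limma called 0 of the 30, and 4 of 10741 genes (0.0372%) over all. In simulated data it recovered 8.50% of true log2 changes of 1. There each gene took the median spread of tumour genes at a similar level and libraries were independent. The share for the members themselves is therefore not known. A missing call here therefore does not show that a level was unchanged. At an unadjusted p under 0.05 stood 1 member, against 4.28% of all genes. The median change of the members was -0.42 on the log2 scale against -0.03 over all genes. The replication and the G2/M lists had similar medians, -0.47 and -0.36, so the shift was not particular to repair genes. Of the 30 members 26 were lower in the knockout mean, and the matching share of all genes was not counted. Most members rose and fell together across the tumours, as described below, so the 26 are not independent of one another. The called genes, named after their values were seen, were Xist and Snora17, lower in knockout, and Ddx3y and Eif2s3y, higher. Xist, the RNA of the inactive X chromosome, was at 143, 96.4 and 147 FPKM in wild type 1, 2 and 4 and at 0.829, 2.80 and 2.69 FPKM in knockout 5, 7 and 8. The Y-linked gene Ddx3y was at most 0.109 FPKM in wild type and at 23.4, 27.6 and 16.0 FPKM in knockout, and Eif2s3y, Kdm5d and Uty also stood higher in every knockout library. The sex of the animals is not in the labels, and these transcripts split exactly by genotype, so sex and genotype cannot be told apart in any tumour comparison here. The members' median rested on single libraries, running from -0.89 without wild type 1 to 0.00090 without wild type 4.

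Many members spanned a wide range within each genotype. Brca1 was at 5.69, 26.3 and 37.4 FPKM in wild type 1, 2 and 4 and at 34.5, 5.75 and 11.0 FPKM in knockout 5, 7 and 8. Wild type 2, wild type 4 and knockout 5 were high, and wild type 1 and knockout 7 low, in both cases across genotypes. Rad51ap1 followed the same order of high and low, with 4.39, 30.8 and 41.7 FPKM in wild type and 37.6, 5.88 and 10.6 FPKM in knockout. Fancd2 ranged from 1.08 FPKM in knockout 7 to 16.9 FPKM in wild type 4, and Fanca from 1.10 to 15.7 FPKM in the same libraries. For 19 of the 30 members the 3 highest libraries were wild type 2, wild type 4 and knockout 5, against 16.5% of all genes tested. These 19 held 8 of 10 recombination genes, all 3 Fanconi genes, Pms2, Chek1, Chek2, Mdc1, Rnf8, Rnf168, Mre11a and Rbbp8. The set of libraries was picked after the values were seen, so this is a description.

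**Figure D4:**
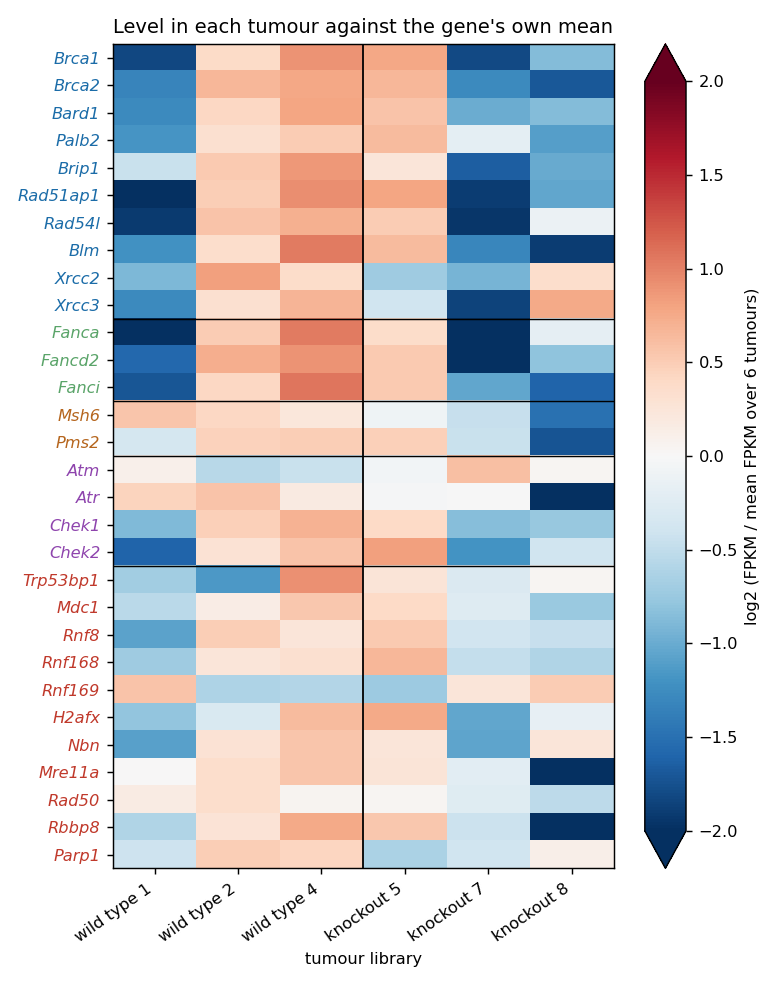
Level of 30 genes (rows) in each tumour (columns), as log2 of FPKM over the gene's mean in 6 tumours, red above and blue below, with colours ending at 2 log2 units either way. Most recombination and Fanconi genes are red in wild type 2, wild type 4 and knockout 5 and blue in the other libraries, and Rnf169 has the opposite pattern.

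Rnf169 and Atm had the opposite order, with their 3 highest libraries in wild type 1, knockout 7 and knockout 8 (18.8% of all genes). Rnf169 was at 18.5, 8.14 and 8.28 FPKM in wild type 1, 2 and 4 and at 7.54, 14.7 and 17.7 FPKM in knockout 5, 7 and 8. Every tumour that was high for Brca1 was low for Rnf169. Atm was at 12.1, 7.70 and 8.28 FPKM in wild type and at 10.9, 17.1 and 11.6 FPKM in knockout. Neither was called between genotypes (log2 change 0.20, SE 0.47, and 0.45, SE 0.35).

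Cell division genes followed the same split of the tumours, and T cell markers the reverse. The 48 replication genes had a median level, relative to each gene's own mean over 6 tumours, of 0.415, 1.46 and 1.65 in wild type 1, 2 and 4 and of 1.44, 0.396 and 0.601 in knockout 5, 7 and 8. The members stood at 0.540, 1.32 and 1.52 in wild type and at 1.36, 0.540 and 0.595 in knockout, with the same 3 tumours above 1. The haemoglobin share of all FPKM was 1.29%, 5.47% and 23% in wild type 1, 2 and 4 and 20.4%, 2.76% and 6.55% in knockout 5, 7 and 8. The 16 T cell markers summed to 8432, 2179 and 2635 FPKM in wild type and to 2686, 5897 and 4384 FPKM in knockout, so the sums were lowest in the 3 tumours where most repair transcripts were highest. All 8 erythroid markers found were above 0 in some tumour, with sums of 769.5 to 27227 FPKM in wild type and 2239 to 24141 FPKM in knockout. Other markers did not follow the split. Haemoglobin was lower in wild type 2 than in knockout 8. Neutrophil markers (11 genes) summed to 218, 3290.0 and 5.56 FPKM in wild type 1, 2 and 4 and to 69.7, 348 and 171 FPKM in knockout 5, 7 and 8. Macrophage markers (12 genes) ran from 13.4 FPKM in wild type 4 to 349 FPKM in wild type 2. B cell markers (9 genes) summed to 15.2 to 49.8 FPKM in wild type and 57.9 to 65.6 FPKM in knockout. The part of these cells in the members' levels was not tested.

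**Figure D5:**
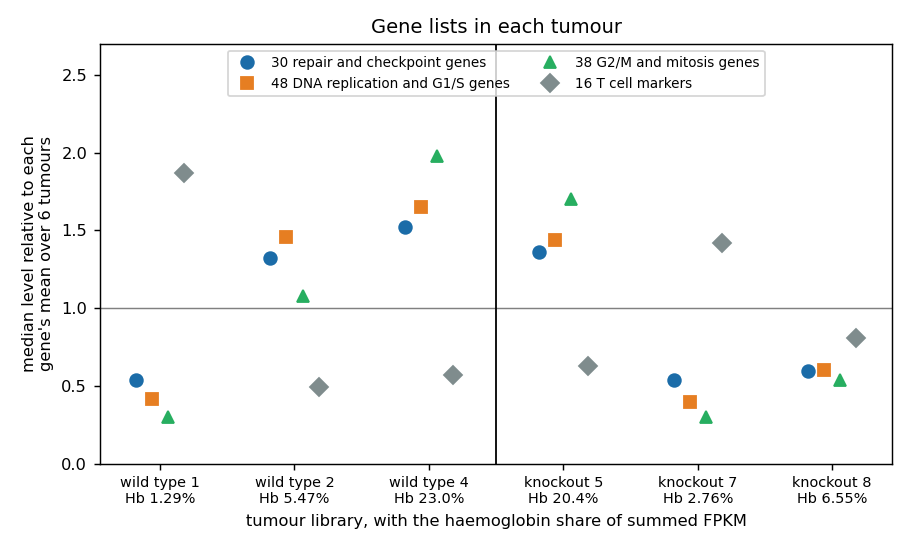
Median level of 4 gene lists in each tumour relative to each gene's mean over 6 tumours (vertical axis), with the haemoglobin share under each library. Repair, replication and mitosis genes lie above 1 in wild type 2, wild type 4 and knockout 5 and below 1 in the other 3 tumours, and T cell markers lie below 1 in those 3 and also in knockout 8.

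For 3 members each knockout tumour was below each wild-type tumour, against 5.20% of all genes, and for 0 members each was above, against 4.01%. Msh6 was at 64.1, 58.1 and 51.3 FPKM in wild type 1, 2 and 4 and at 41.2, 31.7 and 15.5 FPKM in knockout 5, 7 and 8. It was the member with the smallest p (log2 change -1.05, SE 0.39, unadjusted p = 0.0295, limma adjusted p = 0.986), and it did not follow the order of the cell division genes. Rad50 was at 25.3, 28.8 and 23.6 FPKM in wild type and at 23.1, 19.1 and 15.7 FPKM in knockout. Atr was at 7.21, 7.82 and 5.96 FPKM in wild type and at 5.20, 5.26 and 0.187 FPKM in knockout, and its log2 change went from -1.15 to -0.35 without knockout 8. Knockout 8 was also the lowest library for Msh6, Rad50, Mre11a (2.63 FPKM, with 11.6 to 19.8 FPKM elsewhere), Pms2, Blm, Rbbp8, Brca2 and Mdc1. Over all genes tested its median level relative to each gene's mean was 0.882, the lowest of the 6 tumours, and it had the most genes at 0. The share of all genes that were lowest in knockout 8 was not counted.

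The genes that moved ex vivo were not called between genotypes in the tumours. H2afx was at 92.4, 129 and 247 FPKM in wild type and at 268, 77.7 and 142 FPKM in knockout, a log2 change of 0.00 (SE 0.54). Chek1 was at 5.24, 13.4 and 15.6 FPKM and at 12.7, 5.35 and 5.71 FPKM (log2 change -0.45, SE 0.52), and Nbn at 7.99, 20.6 and 24.9 FPKM and at 19.9, 8.10 and 19.9 FPKM (log2 change -0.11, SE 0.53). The tables were scaled apart, so levels are not compared between them, and the difference between the drug and the genotype effect was not tested.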

How the data were processed

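Poly-A RNA libraries were strand-specific (dUTP method) and read as single reads of 50 bases, per the labels' protocols. The authors deposited FPKM values in 2 tables of 6 samples. CASAVA, TopHat and build mm9 are named in the submitters' processing notes. The program and annotation behind FPKM, and any use of strand in counting, were not stated there. No coordinates of mm9 are given.

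Columns were matched to samples by name. Values were tested as log2(FPKM + 1) for genes whose mean reached 1 FPKM (10245 ex vivo, 10741 in the tumours). Limma 3.58.1 (R 4.3.3) was run on each table separately (mean trend, two-sided, Benjamini-Hochberg over all kept genes, call at an adjusted p under 0.05), since an exact permutation test of 3 against 3 cannot go below 0.1. The main fit had no block. Deviations of same-numbered ex vivo samples from their group means correlated at 0.467, 0.579 and 0.619, above the limit of 0.1, so these samples were taken as pairs and paired values are given too. No label says what the numbers mark. The length correction removed from each pair a loess trend with the longest GENCODE M21 transcript, known for 93.3% of the genes tested. Limma without pairing was tested on simulated data in which 200 genes were changed. Each simulated gene took the median spread of genes at a similar level, and libraries were drawn independently. Differences in spread between such genes and shifts shared by paired samples were therefore left out, and recovery in the real data may differ. In these simulations limma recovered 83.0% of log2 changes of 1 ex vivo and 8.50% in the tumours, with 14 and 2 false calls. At log2 changes of 2 it recovered 95.0% and 76.5%, with 9 and 4 false calls.

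Members, subgroups and lists were chosen with earlier results of these data known. Named genes were the 31 members, up to 2 called genes of each other repair list, Pcna, Mki67, Cdkn1a, Mdm2, Malat1, Cd3e, Hbb-b1 and Cxcr4, and not all are reported here. Other lists were DNA replication and G1/S, G2/M and mitosis, p53 targets, nuclear long RNAs and markers of T, erythroid, neutrophil, macrophage, B, stromal and endothelial cells. Protein sequences were not used here. Alternatives were other pseudocounts, filters, scalings and variance models, an adjusted p under 0.10, leaving out each library, and the pairing.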

Additional observations from a re-analysis of the deposited data

How the results depend on the processing

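Without pairing, the ex vivo comparison called 13 genes and 1 member, Rnf169. All genes called numbered 59 with no filter, 188 at a mean of at least 5 FPKM, 89 with median-of-ratios scaling, 3 with quantile normalisation, 1 with no mean trend and 847 at an adjusted p under 0.10. Members called numbered 0 at a mean of at least 0.1 FPKM, 0 with quantile normalisation, 0 with no mean trend and 3 at an adjusted p under 0.10 (Rnf169, H2afx and Chek1). Rnf169 then had a limma adjusted p of 0.0604, 0.0569 and 0.0961 in the 3 settings that lost it. With same-numbered samples paired as a block, 2036 genes and 5 members were called, with the block and length correction 1285 and 4, with the block and median-of-ratios scaling 2029 and 5, and with the block and quantile normalisation 1914 and 5. Leaving out libraries or pairs gave 3 to 1207 genes and 0 to 3 members: without pairing 3 to 5 genes and 0 members, and with pairing 9 genes without pair 1, 7 without pair 2 and 1207 without pair 3. The members' median ran from -0.10 to 0.0030 when a library or pair was left out, the highest without vehicle 3, and was -0.17 with the block and length correction. Signs turned, all in genes not called, for Brip1 (-0.03) and Trp53bp1 (-0.06) with quantile normalisation with and without the block. With the block and length correction they turned for Brca2 (-0.20), Brip1 (-0.17), Fancd2 (-0.05), Atm (-0.14), Chek2 (0.02), Trp53bp1 (-0.28), Mdc1 (-0.12) and Mre11a (-0.08). When libraries or pairs were left out the log2 change spanned 0 for Trp53bp1 (-0.06 to 0.11, and -0.04 to 0.07 unpaired), Brip1 (-0.01 to 0.06), Xrcc2 (-0.11 to 0.06), Palb2 (-0.21 to 0.03), Blm (-0.17 to 0.00086, lowest -0.16 unpaired), Fanca (-0.27 to 0.01), Atr (-0.19 to 0.01), Rad50 (-0.07 to 0.04), Rbbp8 (-0.06 to 0.04) and Chek2 (-0.13 to 0.04). In the tumours 4 genes were called, 0 with no filter and 0 to 4 without single libraries, and no paired analysis was possible because the genotypes share no replicate number. Scaling without haemoglobin genes moved the median of all genes from -0.03 to -0.14 and that of the members to -0.54. Tumour signs turned for Rnf8 with a pseudocount of 0.1 (0.01) or 0.5 (0.0018), for H2afx with median-of-ratios scaling (-0.0027) or scaled without haemoglobin genes (-0.13), and for Palb2 with quantile normalisation (0.00079). Without single tumours the log2 change spanned 0 for H2afx (-0.45 to 0.44), Palb2 (-0.51 to 0.27), Rad54l (-1.06 to 0.34), Chek2 (-0.63 to 0.40), Trp53bp1 (-0.10 to 0.82), Rnf8 (-0.44 to 0.28), Rnf168 (-0.47 to 0.14), Nbn (-0.58 to 0.29), Brca1 (-1.18 to 0.11), Bard1 (-0.95 to 0.0021), Rad51ap1 (-1.34 to 0.15), Xrcc3 (-0.79 to 0.19), Fanca (-1.32 to 0.22), Mdc1 (-0.53 to 0.02) and Rnf169 (-0.03 to 0.56). The cause of these shifts was not tested. Read depth is not known from FPKM, so no counting interval is given.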

Other observations

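The entry that joins Fsbp and Rad54b, a motor protein related to Rad54l, was at 10.5, 12.5 and 13.5 FPKM in vehicle 1, 2 and 3 and at 12.6, 11.0 and 10.4 FPKM in AMD3100 1, 2 and 3. In the tumours it was at 1.03, 4.10 and 9.84 FPKM in wild type 1, 2 and 4 and at 8.92, 0.320 and 2.66 FPKM in knockout 5, 7 and 8. Its reads cannot be assigned to either gene.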
